A study of Mus musculus with 18 samples.

Results

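The 10 genes described here encode heat shock proteins of the cytosol and the transcription factor that controls them. They are Hspa1a, Hspa1b and Hspa8 of the Hsp70 family, the Hsp110 protein Hsph1, Hsp90aa1 and Hsp90ab1 of the Hsp90 family, the J-domain proteins Dnaja1 and Dnajb1, the small heat shock protein Hspb1, and Hsf1. They were chosen by name, as the rows whose gene name is one of these symbols, and are 10 of 24539 listed genes. All 10 passed the filter on low counts in both kinds of library.

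The libraries came from the livers of 9 male wild-type C57BL/6 mice, 3 on each diet. The control group ate normal chow, the HFD group a high-fat diet, and the HFD+LYC group that high-fat diet with lycopene, a plant carotenoid. The diets began at 8 weeks of age and lasted 8 weeks, so all animals were 16 weeks old at sampling, and chow with lycopene was not analysed here. From each liver 1 library was made of the poly(A) RNA in total RNA, called mRNA here, and another of the poly(A) RNA that pelleted through sucrose with its ribosomes on, as ribosome-nascent chain complexes (RNC). The comparison of the 3 diets asks what the high-fat diet changed and what lycopene changed on top of it, and the comparison of RNC with mRNA asks how much of each transcript was carried by ribosomes.

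Heat shock proteins are chaperones: they bind proteins that have lost or not yet reached their fold, and use co-chaperones to hold, refold or hand them on. In a resting cell HSF1 is kept inactive by these same chaperones, and when unfolded proteins draw the chaperones away it forms trimers that bind heat shock elements, arrays of inverted GAA units in the promoters of its targets. Hspa8 and Hsp90ab1 are made in nearly all cells at all times, Hspa1a and Hspa1b are the strongly inducible Hsp70 genes, and in the liver the heat shock genes are known to cycle over the day with body temperature and feeding.

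The promoters of 6 of the 10 genes were in the RefSeq promoter table, with 10 start sites, and those of Hspa8, Hsp90aa1, Hsp90ab1 and Hsf1 were not. The 250 bases before each start were searched for the pairs of inverted units GAANNTTC and TTCNNGAA, each its own reverse complement, so that a match stands on both strands. Windows with a match are printed 5′ to 3′ on the gene's own strand, from the RefSeq sequence of GRCm38.p6, with the matched bases in capitals, since these letters are the core of the element that HSF1 is known to bind. Hspa1a lies at chr17:34969359-34972156 and its window at chr17:34972157-34972406, minus strand. Hspa1b lies at chr17:34956429-34959238 and its window at chr17:34959239-34959488, minus strand. Hsph1 lies at chr5:149616843-149636498, and the window of the farther upstream of its 2 start sites in the table at chr5:149636337-149636586, minus strand. Dnaja1 lies at chr4:40722468-40734965, and the window of the start site that has a match at chr4:40722218-40722467, plus strand. Hspb1 lies at chr5:135887919-135889563 and its window at chr5:135887669-135887918, plus strand.

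Hspa1a: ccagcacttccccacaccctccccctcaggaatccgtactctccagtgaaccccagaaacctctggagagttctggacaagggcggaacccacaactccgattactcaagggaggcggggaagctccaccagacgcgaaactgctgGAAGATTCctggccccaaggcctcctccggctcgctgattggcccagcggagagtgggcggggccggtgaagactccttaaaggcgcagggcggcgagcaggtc
Hspa1b: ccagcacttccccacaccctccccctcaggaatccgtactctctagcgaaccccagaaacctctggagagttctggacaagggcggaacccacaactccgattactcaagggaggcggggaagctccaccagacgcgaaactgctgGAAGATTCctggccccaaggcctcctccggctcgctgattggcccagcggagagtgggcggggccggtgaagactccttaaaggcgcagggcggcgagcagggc
Hsph1: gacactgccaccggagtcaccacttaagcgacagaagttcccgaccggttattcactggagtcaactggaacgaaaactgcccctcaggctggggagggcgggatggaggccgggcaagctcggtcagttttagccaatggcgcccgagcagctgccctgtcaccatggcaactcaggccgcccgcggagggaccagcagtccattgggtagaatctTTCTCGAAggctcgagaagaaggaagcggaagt
Dnaja1: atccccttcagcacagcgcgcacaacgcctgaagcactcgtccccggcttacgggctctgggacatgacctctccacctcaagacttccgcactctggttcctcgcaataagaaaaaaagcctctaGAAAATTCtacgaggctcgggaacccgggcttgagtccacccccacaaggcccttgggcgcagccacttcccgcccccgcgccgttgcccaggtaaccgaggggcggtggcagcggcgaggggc
Hspb1: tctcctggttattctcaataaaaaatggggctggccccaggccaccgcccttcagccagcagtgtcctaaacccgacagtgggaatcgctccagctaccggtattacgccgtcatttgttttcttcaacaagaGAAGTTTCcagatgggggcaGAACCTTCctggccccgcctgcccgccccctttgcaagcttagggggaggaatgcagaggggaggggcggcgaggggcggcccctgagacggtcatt

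Hspa1a and Hspa1b carried the same match, GAAGATTC, 104 to 97 bases before the start, and 247 of the 250 bases of their windows were identical. Hsph1 carried TTCTCGAA 33 to 26 bases before this start, which is 54 to 47 bases before its other start. Dnaja1 carried GAAAATTC 124 to 117 bases before 1 of its 3 starts in the table. Hspb1 carried 2 matches, GAAGTTTC at 117 to 110 and GAACCTTC at 97 to 90. Neither window of Dnajb1 (chr8:83608175-83612653) held these letters. Of all 32851 promoters in the table, 12.8% held either form, 1.46% held at least 2 matches, and 0.466% held a run of 3 alternating units, which contains both short forms and was in none of the 10 windows.

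The other members lie on GRCm38 at chr9:40801276-40805202 (Hspa8), chr12:110691036-110696395 (Hsp90aa1), chr17:45567778-45573261 (Hsp90ab1) and chr15:76477362-76501155 (Hsf1).

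Hspa1a and Hspa1b are neighbours with nearly the same coding sequence, which bears on every value given for either. Their coding sequences in GENCODE vM21 differed at 8 of 1926 aligned bases (99.58% identity) beside a gap of 3 bases, and the longest stretch with no difference was 638 bases. The stretch with the most differences is shown, coding bases 1357 to 1416 counted along Hspa1b, with the bases that differ in capitals.

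Hspa1a: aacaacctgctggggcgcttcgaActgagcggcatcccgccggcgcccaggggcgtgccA
Hspa1b: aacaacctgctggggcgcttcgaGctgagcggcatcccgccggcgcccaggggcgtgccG

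The pair differ more after the stop codon, where Hspa1a has 810 and Hspa1b 643 bases. The sources used here do not say how the submitters assigned a read that fits both genes, so the split between them is uncertain. Of the reads given to the pair, Hspa1a held 2.33% to 7.53% in the 3 control mRNA libraries, 6.65% to 14.3% in the HFD ones and 9.95% to 17.4% in the HFD+LYC ones. In the RNC libraries of HFD+LYC it held 7.69% in liver 1 (95% Wilson interval 4.86 to 12%), 0 of 278 reads in liver 2 and 0 of 332 in liver 3. The upper limits of the same interval for livers 2 and 3 were 1.36% and 1.14%. These intervals and limits cover counting error only.

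The libraries held 4533729 to 12742436 reads each, and the 10 genes took 0.0933% to 0.336% of them. Levels are given in CPM (a gene's reads relative to the library's total), scaled by trimmed mean of M-values within each kind of library, as mean ± SD over 3 livers. The p-values rest on the spread between these animals in the fits of 1 kind of library. In the fit of all 18 libraries the 2 libraries of a liver were treated as independent, except where the liver is given as a block. In whole liver, fewer cells of a type and less RNA per cell cannot be told apart. In RNC of HFD+LYC only 8940 to 10037 genes had a read, below the 13324 to 14450 genes of control and HFD, so these 3 libraries lay away from the others. The HFD+LYC libraries also held more GC-rich sequence. Genes over 55% GC took 26.1% to 30.7% of the HFD+LYC mRNA reads and 26.2% to 31.9% of the HFD+LYC RNC reads, against 17.9% to 22.7% and 11.7% to 15.1% on the other diets. Since these features mark the whole group, they cannot be told apart from the diet, and the members' called changes are given also as corrected for GC content (a smooth curve of expression on GC taken out of each library), an alternative chosen after seeing the data. That correction moved the median log2 change of all genes to 0.18 and 0.20 in RNC of HFD+LYC against HFD and control. It moved the median to 0.27 in RNC against mRNA of HFD+LYC, and to 0.33 in both ratio comparisons of HFD+LYC. With the liver as a block added, the median was -0.14 in RNC against mRNA of HFD+LYC. For the ratio it was then -0.0046 against HFD and 0.0073 against control. Corrected values are to be read against the medians of their own fit. Albumin (Alb), the defining hepatocyte transcript, stood at 9375 to 76196 CPM in the mRNA libraries, 44381 to 75084 CPM in RNC of control and HFD and 54699 to 199409 CPM in RNC of HFD+LYC. The skeletal muscle markers summed to at most 3.53 CPM in the mRNA libraries, 1.41 CPM in RNC of control and HFD and 8.28 CPM in RNC of HFD+LYC.

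Compared per length, as the deposited RPKM (reads scaled to transcript length and library size), Hspa8, the constitutive Hsc70, was the most abundant member in every group. In control mRNA it stood at 419 ± 149 RPKM, followed by Hsp90ab1 at 169.8 ± 25.3, Hsp90aa1 at 77.0 ± 33.9, Dnaja1 at 43.4 ± 8.60 and Hspb1 at 38.7 ± 20.4. Hsf1 followed at 12.1 ± 4.79 RPKM, Hsph1 at 6.67 ± 2.90, the inducible Hspa1b at 4.54 ± 4.17 and Dnajb1 at 4.13 ± 1.09, and Hspa1a was last at 0.332 ± 0.380. The control livers of Hspa8, Hsp90ab1, Hspb1 and Dnajb1 lay wholly above those of the next gene in the order, and the other neighbours overlapped. In HFD+LYC RNC the order began Hspa8 at 678 ± 311 and Hsp90ab1 at 85.6 ± 41.9 RPKM, and from Hspb1 at 15.9 ± 8.06 down to Hsf1 at 3.01 ± 1.84 each pair of neighbours overlapped.

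**Figure D1:**
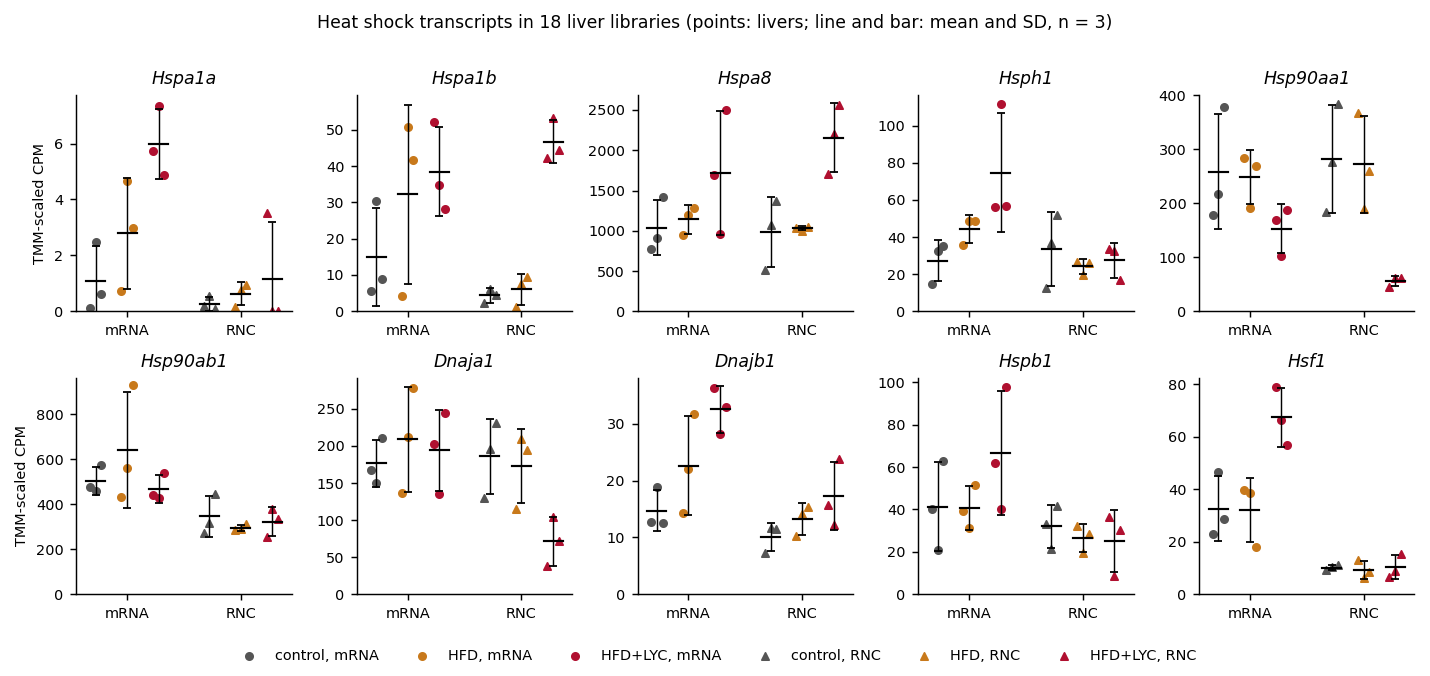
Level of each of the 10 genes in CPM (linear axis from 0) in the mRNA and RNC libraries of the 3 diets. Each point is 1 liver, and bars give the mean and SD of 3 livers. The Hspa1b points of HFD+LYC RNC, 42.2 to 53.3 CPM, sit above all other RNC points of that gene, and the Hsp90aa1 points, 44.5 to 61.4 CPM, sit below all others.

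No member passed the test with the high-fat diet alone. Of the 10, 0 passed at an adjusted p of 0.05 in edgeR's quasi-likelihood test of HFD against control in mRNA, where 0.0158% of 12664 genes did, and 0 passed in RNC, where 0.00858% of 11660 did. At an unadjusted p of 0.05 the count was also 0 in each, and DESeq2 and limma-voom called 0. The members' median log2 change was 0.30 in mRNA, beside -0.0072 over all genes, and -0.077 in RNC, beside 0.0084. Changes ran from -0.057 to 1.36 in mRNA and from -0.48 to 1.23 in RNC. The HFD and control livers overlapped for all members but Hsph1 in mRNA. Its lowest HFD liver, at 35.6 CPM, was just above its highest control liver, at 34.9 CPM (log2 0.70, adjusted p = 0.9999). The share of all genes with such a separation was not determined.

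With lycopene, members passed the test in the ribosome-bound RNA. In RNC of HFD+LYC against HFD, Hspa1b rose and Hsp90aa1 and Dnaja1 fell, 3 of 10 members against 26.8% of all 11660 genes tested. Against control, Hspa1b and Hspa8 rose and Hsp90aa1 and Dnaja1 fell, 4 of 10 against 26.3%. The first share is near that of all genes, and both counts are small, so neither sets the 10 genes apart. The members' median log2 change was 0.17 against HFD, beside -0.29 over all genes, and -0.040 against control, beside -0.28. The comparisons share the HFD+LYC libraries, so they are not separate evidence. With the GC correction the called members were Hspa1b and Hspa8, both higher, in each comparison, against 23.8% and 24.1% of all genes, and 0 were called lower. The correction thus added Hspa8 against HFD, and removed Hsp90aa1 and Dnaja1 in each comparison. Scaling by library size alone moved the median of all genes to -0.87 and -0.74, and the called members kept their direction under it (log2 2.35 for Hspa1b and -2.79 for Hsp90aa1 against HFD). Only Hspa1b and Hsp90aa1 were still called then. The calls of Dnaja1 in each comparison and of Hspa8 against control were lost.

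In mRNA, 0 of 10 members were called in either lycopene comparison. For HFD+LYC against HFD, 2.91% of the 12664 genes tested were called, 1 member reached an unadjusted p of 0.05, DESeq2 called 1 (Hsf1) against 11.8% of all genes, and limma-voom called 0. For HFD+LYC against control, 5.54% were called, 4 members reached an unadjusted p of 0.05, DESeq2 called 3 (Hspa1a, Hsph1 and Dnajb1) against 12.9%, and limma-voom called 0. The members' median log2 change was 0.56 against HFD and 0.88 against control, beside -0.039 and -0.046 over all genes, and 7 and 8 of the 10 values were above 0. After the GC correction 0 were called against HFD, where 1.59% of genes were, and 1, Hsph1, against control, where 3.44% were.

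Hspa1b, an inducible Hsp70, rose most among the called members. Its RNC level was 2.29, 6.28 and 4.58 CPM in the control livers, 1.27, 7.53 and 9.51 CPM in the HFD livers, and 42.2, 53.3 and 44.5 CPM in the HFD+LYC livers. All 3 HFD+LYC livers were above all 6 others. This was 7.47-fold above HFD (log2 change 2.90 ± 0.63 SE, adjusted p = 0.00765) and 10.6-fold above control (3.41 ± 0.64, adjusted p = 0.00499). The call held without any single library and with the GC correction (log2 2.42, adjusted p = 0.0312, and 3.06, adjusted p = 0.0133).

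Hspa1b mRNA did not show the same separation. It stood at 5.52, 30.5 and 8.89 CPM in control, 4.34, 50.8 and 41.6 CPM in HFD, and 52.0, 34.9 and 28.3 CPM in HFD+LYC, so the HFD+LYC livers overlapped the HFD livers and also the highest control liver. HFD liver 1 and control liver 1 were low. With the reads of Hspa1a and Hspa1b summed, which needs no split between them, the RNC log2 change was 2.80 ± 0.62 against HFD (adjusted p = 0.00870) and 3.36 ± 0.64 against control (adjusted p = 0.00515), and the sum was not called in mRNA.

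Hspa1a, the second inducible Hsp70, was scarce. Its mRNA level was 0.131, 2.48 and 0.635 CPM in control, 0.723, 4.67 and 2.96 CPM in HFD, and 5.75, 7.33 and 4.88 CPM in HFD+LYC. The HFD+LYC livers were above all others, and the difference from control was 5.52-fold (log2 2.47 ± 0.80, adjusted p = 0.0936), which did not pass. Without control liver 2 it did (3.90, adjusted p = 0.0297). In RNC it stood at 0.0776 to 0.556 CPM in control and 0.159 to 0.958 CPM in HFD, and at 3.52, 0 and 0 CPM in HFD+LYC, where liver 1 alone had reads.

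Hspa8, the constitutive Hsp70 that also clears clathrin coats, was high on all diets. Its RNC level was 519, 1072 and 1375 CPM in control, 1041, 1001 and 1051 CPM in HFD, and 1709, 2199 and 2562 CPM in HFD+LYC, so that the HFD+LYC livers were above all others. That separation depends on the TMM scaling. In RPKM, HFD+LYC liver 1 stood at 319, below all HFD livers (485 to 630). With TMM scaling Hspa8 was 2.18-fold above control (log2 1.13 ± 0.36, adjusted p = 0.0446), and with library size alone that call was lost. The difference from HFD was 2.09-fold and missed the threshold (1.06 ± 0.36, adjusted p = 0.0542). The call against control rested on single libraries: it held without control liver 3 or HFD+LYC liver 1 (adjusted p = 0.0379 and 0.0245), and without any other library adjusted p was 0.0542 to 0.122. The call against HFD was gained without control liver 1 or HFD+LYC liver 1 (adjusted p = 0.0278 and 0.0292). Corrected for GC content it was called in each (1.79, adjusted p = 0.00727, and 1.74, adjusted p = 0.00849). Hspa8 mRNA, at 773 to 1422 CPM in control, 943 to 1287 in HFD and 962 to 2495 in HFD+LYC, overlapped between diets. In RPKM its HFD+LYC mRNA (534 to 1051) lay above HFD (407 to 526) and overlapped control (297 to 585).

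Hsph1, an Hsp110 protein that exchanges the nucleotide of Hsp70, stood higher in mRNA on the lycopene diet. Its mRNA level was 14.4, 32.2 and 34.9 CPM in control, 35.6, 48.7 and 48.4 CPM in HFD, and 56.2, 112 and 56.4 CPM in HFD+LYC, with no overlap between any of the diets. The difference between HFD+LYC and control was 2.75-fold (log2 1.46 ± 0.39, adjusted p = 0.0523), just short of the threshold. It passed with the GC correction (1.64, adjusted p = 0.0428) and without HFD liver 3 (1.45, adjusted p = 0.0473). Its RNC level, 12.4 to 52.0 CPM in control, 19.7 to 26.7 in HFD and 16.7 to 33.3 in HFD+LYC, overlapped throughout. In RPKM the HFD+LYC RNC livers (3.45 to 7.47) lay just below the HFD livers (7.51 to 8.52) and overlapped control (4.03 to 15.9).

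Hsp90aa1, the stress-inducible form of the chaperone that matures kinases and steroid receptors, fell most in RNC. Its RNC level was 185, 277 and 384 CPM in control, 367, 189 and 261 CPM in HFD, and 44.5, 61.4 and 61.3 CPM in HFD+LYC. All 3 HFD+LYC livers were below all 6 others. It fell by 2.29 ± 0.35 on the log2 scale against HFD (adjusted p = 0.00218) and by 2.34 ± 0.35 against control (adjusted p = 0.00195), and both calls held without any single library. Corrected for GC content the changes were -1.0003 (adjusted p = 0.0764) and -1.07 (adjusted p = 0.0583), the same direction and no longer called. Its transcript is 42.5% GC, the second lowest of the members.

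Hsp90aa1 mRNA stood at 178, 217 and 379 CPM in control, 283, 191 and 269 CPM in HFD, and 169, 102 and 187 CPM in HFD+LYC. The HFD+LYC livers were below the HFD livers but not below all control livers, and neither difference passed (log2 -0.70, adjusted p = 0.283, against HFD). Hsp90ab1, the constitutive Hsp90, overlapped in CPM between all diets in both kinds of library. It ran from 426 to 929 CPM in mRNA and from 252 to 448 CPM in RNC. In RPKM its HFD+LYC RNC livers (39.5 to 121.4) lay just below control (122.3 to 189.7) and overlapped HFD (112.4 to 153.0).

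Dnaja1, a J-domain protein that delivers substrates to Hsp70 and has the most AT-rich transcript of the set (41.5% GC), fell in RNC. Its RNC level was 130.4, 196 and 231 CPM in control, 115, 209 and 195 CPM in HFD, and 37.9, 105 and 71.2 CPM in HFD+LYC, with all HFD+LYC livers below all others. It fell by 1.28 ± 0.40 on the log2 scale against HFD (adjusted p = 0.0406) and by 1.38 ± 0.40 against control (adjusted p = 0.0294). Neither call remained with the GC correction, where the changes were 0.025 (adjusted p = 0.969) and -0.15 (adjusted p = 0.782). The call against HFD was also lost without control liver 2 or 3, HFD liver 2 or 3, or HFD+LYC liver 1 or 3 (adjusted p = 0.0527 to 0.129). The call against control was lost without control liver 2 or 3 or HFD+LYC liver 3 (adjusted p = 0.0629 to 0.0995). In mRNA the diets overlapped, at 149.8 to 211, 137 to 278 and 136 to 244 CPM.

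Dnajb1, the J-domain partner of the inducible Hsp70s, stood at 12.7, 18.9 and 12.6 CPM in control mRNA, 14.3, 22.0 and 31.7 CPM in HFD and 36.4, 28.2 and 33.0 CPM in HFD+LYC. The HFD+LYC livers were above all control livers and overlapped HFD. In RPKM they were also above HFD, at 9.72 to 12.1 against 4.29 to 9.04. The difference from control was 2.21-fold (log2 1.14 ± 0.32, adjusted p = 0.0613). It passed without control liver 2 (1.36, adjusted p = 0.0426) or HFD liver 3 (1.14, adjusted p = 0.0345), and not with the GC correction (1.06, adjusted p = 0.0999). In RNC it ran from 7.23 to 11.7 CPM in control, 10.2 to 15.4 in HFD and 12.3 to 23.8 in HFD+LYC, also with no overlap between HFD+LYC and control (log2 0.78, adjusted p = 0.167). In RPKM these RNC groups overlapped, at 2.05 to 5.66 in HFD+LYC and 2.70 to 4.09 in control.

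Hspb1, the small heat shock protein that holds unfolded proteins without using ATP, overlapped in CPM between all diets in both kinds of library. It ran from 20.7 to 97.8 CPM in mRNA and from 8.82 to 41.4 CPM in RNC. That overlap depends on the scaling. In RPKM its HFD+LYC RNC livers (7.87 to 23.997) lay below control (25.1 to 48.8) and HFD (28.2 to 35.5). Its HFD+LYC mRNA in RPKM (51.8 to 95.997) lay above HFD (31.7 to 49.2) and overlapped control (19.7 to 60.3). The Hspb1 transcript, at 60.7%, is the most GC-rich of the members.

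Hsf1, the transcription factor, stood at 23.0, 46.4 and 28.6 CPM in control mRNA, 39.8, 38.5 and 17.98 CPM in HFD and 78.9, 66.5 and 56.7 CPM in HFD+LYC. The HFD+LYC livers were above all others. The difference was 2.10-fold against HFD (log2 1.07 ± 0.36, adjusted p = 0.112) and 2.06-fold against control (1.04 ± 0.36, adjusted p = 0.116), and neither passed. Against control it passed without control liver 2 (1.38, adjusted p = 0.0485). The GC correction gave 0.65 and 0.64 (adjusted p = 0.278 and 0.285). In RNC the diets overlapped, at 9.08 to 11.1 CPM in control, 6.20 to 13.02 in HFD and 6.62 to 15.4 in HFD+LYC.

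**Figure D2:**
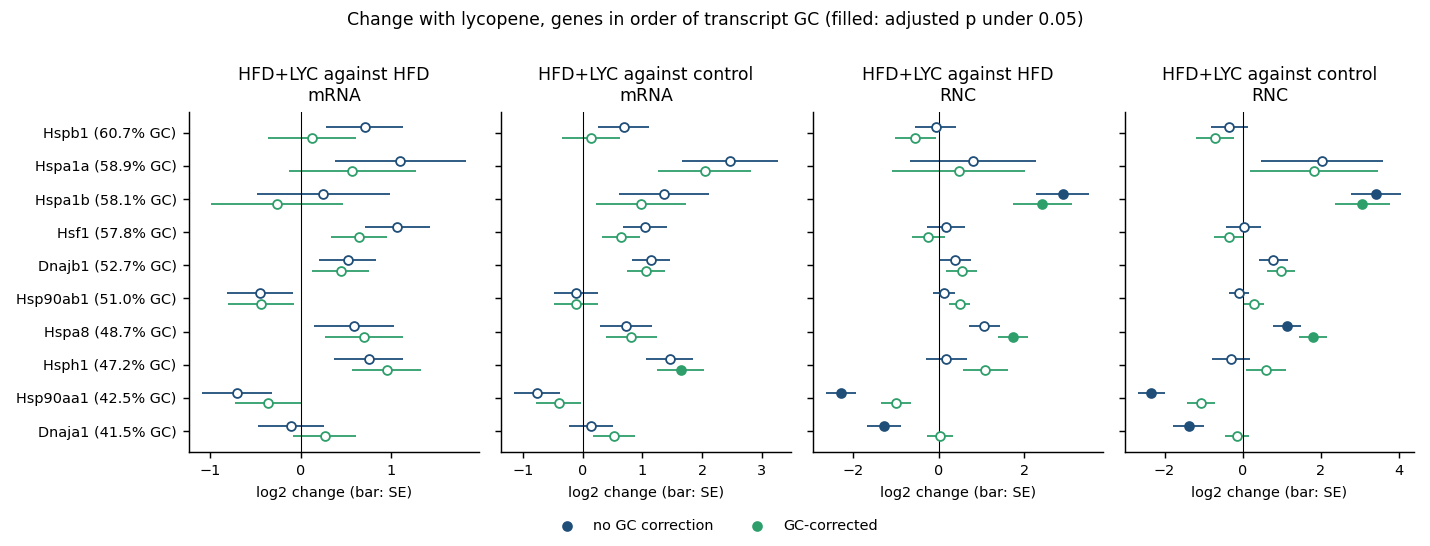
Log2 change ± SE of the 10 genes in HFD+LYC against HFD and against control, in mRNA and RNC, with genes ordered by transcript GC content. Blue points are the edgeR fit and green points the fit with the GC correction, and filled points have an adjusted p under 0.05. The 2 genes with the lowest GC content, Dnaja1 and Hsp90aa1, are called in RNC only without the correction, while Hspa1b is called in RNC with and without it.

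GC content and the RNC change moved together over all genes. Of the genes tested in RNC, the 11452 with a GC value were split into 5 groups of near-equal size by GC content. The median log2 change of HFD+LYC against HFD was -1.11 in the lowest group (up to 44.2% GC), then -0.77, -0.34 and 0.11, and 0.58 in the highest (from 55.8% GC). In mRNA the same medians went from -0.40 to 0.48. After the correction the RNC medians lay between 0.16 and 0.20. Hsp90aa1 and Dnaja1 belong to the lowest group, Hsph1 (47.2% GC) to the second, and Hspa8 (48.7%) and Hsp90ab1 (51.0%) to the third. Dnajb1 (52.7%) belongs to the fourth, and Hspa1b (58.1%), Hspa1a (58.9%), Hsf1 (57.8%) and Hspb1 to the highest. Read against the median of their own group in RNC, Hsp90aa1 at -2.29, Hspb1 at -0.067 and Hsf1 at 0.17 lay below it. Dnaja1 at -1.28 lay slightly below. Hsph1 at 0.18, Hsp90ab1 at 0.12, Dnajb1 at 0.38, Hspa1a at 0.80, Hspa8 at 1.06 and Hspa1b at 2.90 lay above. The Hspa1a value has an SE of 1.48, and only HFD+LYC liver 1 had reads.

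**Figure D3:**
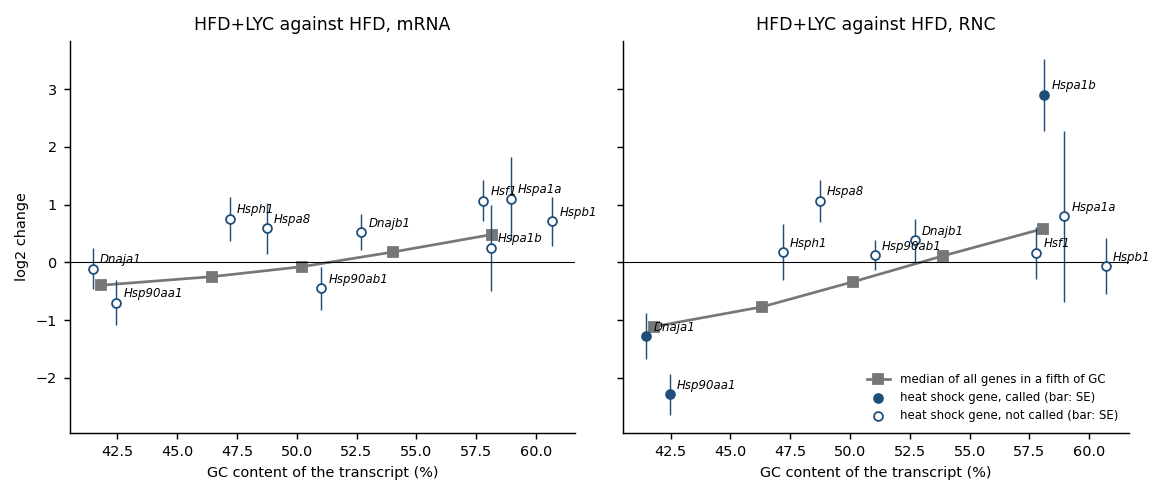
Transcript GC content (percent) against the log2 change of HFD+LYC against HFD, in mRNA and in RNC, with 1 named point per member. Grey squares are the medians of all tested genes in 5 groups by GC content, which climb from -1.11 to 0.58 in RNC. Hspa1b and Hspa8 lie above that line in RNC, and Hsp90aa1 lies below it.

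Ribosome carriage was first compared within a diet, over all 18 libraries in a single fit, so CPM here are on that fit's scale. In control and in HFD, 0 of 10 members differed between RNC and mRNA in edgeR's test, where 2.13% and 0.101% of 12872 genes did. At an unadjusted p of 0.05 there were 4 members in control and 2 in HFD, and DESeq2 and limma-voom called 0 in each. In HFD+LYC, Hspa8 was higher and Hsf1 lower in RNC, 2 of 10 members against 43.4% of all genes, a smaller share than over all genes. With the liver as a block, since each mRNA and RNC library pair came from the same animal, Hspa1b joined them (log2 1.22, adjusted p = 0.0194), 3 members against 41.8%. After the GC correction Hspa8, Hspa1b and Hsp90ab1 were higher and Hsf1 lower, 4 against 47.6%.

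Hsf1 was 13.9 ± 6.35 CPM in RNC and 48.7 ± 8.00 CPM in mRNA of the HFD+LYC livers, with no overlap, a log2 difference of -1.80 ± 0.40 (adjusted p = 0.00194) and, with the GC correction, -1.12 (adjusted p = 0.0111). In control and HFD its difference was -0.72 and -0.84 and did not pass. Hspa8 was 2909 ± 590 CPM in RNC and 1247 ± 576 CPM in mRNA of the HFD+LYC livers, a difference of 1.22 ± 0.41 (adjusted p = 0.0236) and, with the GC correction, 1.99 (adjusted p = 0.000760). That call was lost without HFD+LYC liver 1 (adjusted p = 0.0534) or liver 2 (0.92, adjusted p = 0.107), and with the HFD+LYC libraries fitted alone (1.31, adjusted p = 0.127). Its difference in control and HFD, 0.88 and 0.82, was of a like size and did not pass. With library size alone the median of all genes moved from -0.51 to -1.81. Under that scaling Hsf1 was still called lower (-3.07, adjusted p = 0.000198), and Hspa8 came to 0.053 and was no longer called (adjusted p = 0.919).

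Between diets the RNC to mRNA ratio, tested as the interaction of diet and kind of library, changed for Hsp90aa1. Its log2 ratio was 1.00, 1.34 and 0.95 in the control livers, 1.35, 0.95 and 0.90 in the HFD livers, and -1.02, 0.17 and -0.71 in the HFD+LYC livers. All 3 HFD+LYC livers were below all 6 others. The ratio fell by 1.66 ± 0.53 against HFD (adjusted p = 0.0408) and by 1.64 ± 0.53 against control (adjusted p = 0.0471), 1 of 10 members against 16.4% and 14.8% of all genes, so the members' share was not above that of all genes. The GC correction gave -0.44 (adjusted p = 0.609) and -0.47 (adjusted p = 0.587) and called 0 members, against 18.9% and 17.2% of all genes. Against HFD the call held without control liver 1 or 3 or HFD+LYC liver 2 (adjusted p = 0.0239 to 0.0398), and was lost without any of the other livers (adjusted p = 0.0578 to 0.129). Against control it held only without HFD+LYC liver 2 (adjusted p = 0.0250, otherwise 0.0561 to 0.141).

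For Hspa1b the log2 ratio was -0.28, -1.24 and -0.022 in the control livers, -0.65, -1.74 and -1.15 on HFD, and 0.60, 1.49 and 1.53 on HFD+LYC, so that the 3 lycopene livers stood above the rest. The change was 2.58 ± 1.05 against HFD (adjusted p = 0.107) and 1.97 ± 1.05 against control (adjusted p = 0.240), neither called. With the liver as a block it was called in each (2.53, adjusted p = 0.0143, and 1.78, adjusted p = 0.0499), also with the GC correction added (2.88, adjusted p = 0.00610, and 2.18, adjusted p = 0.0177). The block also called Hsph1 lower against control (-1.68, adjusted p = 0.0379), so 2 and 3 members were then called, against 12.6% and 10.8% of all genes. Between HFD and control the ratio of 0 members changed, as for 0% of all genes, with 0 members at an unadjusted p of 0.05 and 0 called by DESeq2 and limma-voom.

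**Figure D4:**
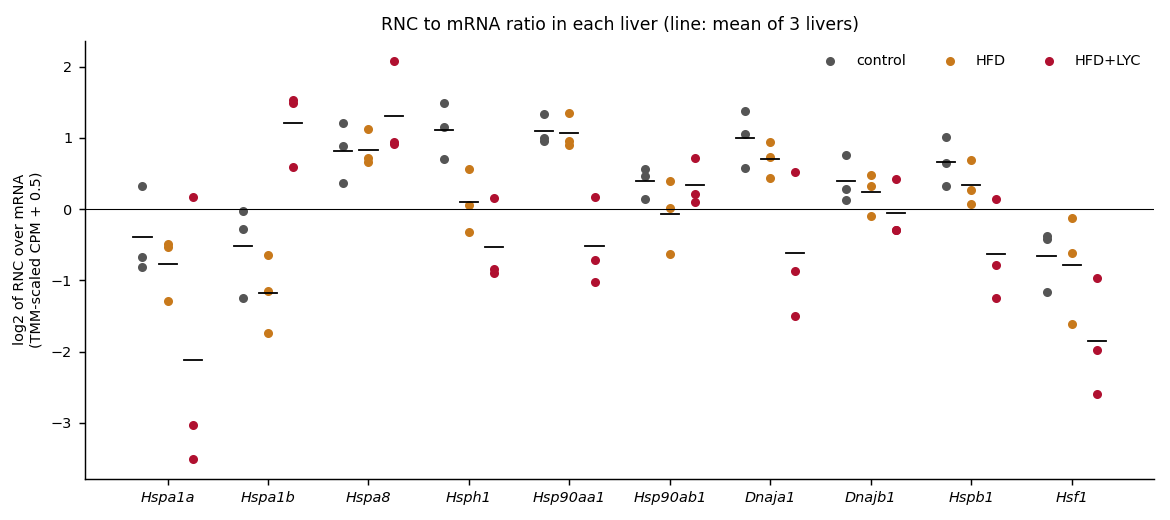
Log2 ratio of RNC to mRNA (CPM + 0.5, scaled over all 18 libraries) of the 10 genes in each of the 9 livers, by diet. The HFD+LYC livers of Hspa1b, 0.60 to 1.53, lie above all others, and those of Hsp90aa1, -1.02 to 0.17, lie below all others.

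The wider heat shock and chaperone network was described from lists of known genes. Among 24 other HSF1 targets, HFD+LYC against HFD in RNC called 3 higher and 4 lower, where 26.8% of all genes were called in either direction. Their median was -0.28, beside -0.29 over all genes. Bag3, an Hsp70 co-chaperone of autophagy, rose by 1.57 (adjusted p = 0.00366) and Dedd2 by 1.61 (adjusted p = 0.00818), while the mitochondrial ribosomal protein gene Mrpl18 fell by 5.26 (adjusted p = 0.000388) and Cacybp by 2.02 (adjusted p = 0.0106). With the GC correction the counts were 4 and 2, where 23.8% of all genes were called. Bag3 (1.33), Dedd2 (1.06) and Mrpl18 (-4.72) were still called then, and Cacybp (-0.69, adjusted p = 0.266) was not. With library size alone 0 were higher and 5 lower (median -0.79, beside -0.87 over all genes), so the calls of Bag3 and Dedd2 depend on the scaling. In mRNA only Dedd2 was called against HFD (1.42, adjusted p = 0.0204), where library size alone called 0, and it was also called against control (1.34, adjusted p = 0.0161). Both calls of Dedd2 in mRNA were lost with the GC correction (0.86, adjusted p = 0.0976, and 0.79, adjusted p = 0.0973).

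Of 21 tested co-chaperones, 2 were higher and 3 lower in RNC against HFD, where 26.8% of all genes were called in either direction. Their median was -0.18, beside -0.29 over all genes. Fkbp5, an Hsp90 co-chaperone of the glucocorticoid receptor, rose in RNC (log2 2.54, adjusted p = 0.00222) and in mRNA (3.25, adjusted p = 0.00146), where it went from 15.2 ± 2.24 CPM in HFD to 144.6 ± 31.2 CPM in HFD+LYC. It was called in each with the GC correction too (2.83 and 3.24). Ptges3, the Hsp90 co-chaperone p23, fell by 1.48 in RNC (adjusted p = 0.00484) but not with the GC correction (-0.19, adjusted p = 0.696). Of the 8 subunits of the cytosolic chaperonin CCT, 5 fell in RNC and 0 rose, where 26.8% of all genes were called in either direction. Their median was -1.19, beside -0.29 over all genes, led by Cct6a (-2.12, adjusted p = 0.000513). After the GC correction 2 of the 8 fell (median -0.34, beside 0.18). Scaling by RLE size factors or by library size alone also gave 5 lower and 0 higher, in the second case with a median of -1.70 beside -0.87 over all genes, and DESeq2 gave 6 lower and 1 higher. Against HFD, 0 of the 8 CCT subunits were called in mRNA by edgeR, with 0 at an unadjusted p of 0.05.

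Genes that report other states of the liver moved with the lycopene group as well. The clock output gene Dbp stood at 1.05 to 1.52 CPM in control mRNA, 11.05 to 33.5 in HFD and 100.0 to 163 in HFD+LYC, and the clock gene Npas2 at 15.6 to 24.5, 3.16 to 10.4 and 0 to 0.813 CPM. Rbm3, which is induced by cold, stood at 24.9 to 37.5 CPM in control RNC, 28.1 to 40.1 in HFD and 4.79 to 8.28 in HFD+LYC. Markers of liver cell types did so too. Of all genes, 26.8% were called in RNC and 2.91% in mRNA of HFD+LYC against HFD (23.8% and 1.59% with the GC correction). The marker counts below are to be read beside these shares. The 8 hepatocyte markers summed to 91326 to 108436 CPM in control RNC, 72765 to 100261 in HFD and 116472 to 430727 in HFD+LYC, with 4 of 8 higher against HFD (7 with the GC correction), and overlapped between diets in mRNA. The 11 Kupffer cell markers summed to 247 to 284 CPM in control RNC, 281 to 498 in HFD and 153 to 216 in HFD+LYC, with 4 of 11 lower against HFD (5 with the GC correction) and none at 0 in a group, and in mRNA 1 of 11 was lower (0 with the correction). The 8 endothelial markers summed to 113 to 149, 118 to 169 and 55.4 to 97.7 CPM in RNC, with 1 of 8 lower (1 with the correction) and none at 0. In mRNA the endothelial sum went the other way, at 224 to 307, 282 to 325 and 412 to 597 CPM, with 1 of 8 higher (0 with the correction). The 8 stellate cell markers summed to 197 to 354, 276 to 340 and 144 to 191 CPM in RNC, with 2 of 8 lower (1 with the correction), and overlapped in mRNA. The 6 cholangiocyte markers summed to 141 to 167, 137 to 178 and 31.7 to 50.2 CPM in mRNA, with 1 of 5 tested lower against HFD (1 with the correction). There 2 of the 5 log2 changes were above 0. In RNC they summed to 23.5 to 27.7, 18.8 to 38.9 and 14.7 to 20.5 CPM. Of the 2 tested in RNC against HFD, 1 was higher and 1 lower (1 higher and 0 lower with the correction). The erythroid and lymphocyte sums of HFD+LYC overlapped those of HFD in both kinds of library. In RNC against HFD, 2 of 5 erythroid markers were higher (1 with the correction). There 2 of 3 tested lymphocyte markers were lower (2 with the correction), from a low level. The lymphocyte sum was 1.74 to 6.62 CPM in HFD+LYC RNC, with 4 of 6 genes at 0. In mRNA against HFD 0 markers of either type were called. The part of these genes and cell types in the results for the members was not tested.

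Variation within a diet was described for mRNA. On the average of the 10 log2 levels, each taken from its diet's mean, control liver 1 (-0.43) and HFD liver 1 (-0.50) were low and the other 7 livers lay between -0.18 and 0.30. Over the 9 livers the correlation of a member with the mean of the other members ran from 0.74 for Dnajb1 through 0.36 for Hsph1 and 0.18 for Hsp90aa1 to -0.077 for Hspb1 and -0.19 for Hsf1 (Pearson r). Hspa1a and Hspa1b, at 0.64 and 0.65, may share reads. Among 8300 other genes whose mean reached 10 CPM, the most alike to the members' average were Ppara (r = 0.94), Hook1 (0.93), Sbk1 (0.93), Cul4b (0.93) and Ipo7 (0.92). These correlations share 9 libraries and their scaling and are given as a description.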

How the data were processed

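The members, the gene lists and the tests were chosen with earlier results of these data known, and the GC correction after seeing the data. Per the labels and the series design, the authors sequenced poly(A) RNA on an Illumina HiSeq instrument, aligned the reads to RefSeq transcripts and computed RPKM. Per the submitters' processing notes, bcl2fastq and mm10 were used. The sources used here name no aligner and no strand setting. The deposited files of the authors hold read counts per gene, RPKM and transcript lengths. The named genes are the 10 members, the genes with the smallest p of each other list (up to 4 called, otherwise 2) and the 5 genes most alike to the members.

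Counts were tested with edgeR 4.0.16 in R 4.3.3 (robust quasi-likelihood fit and F-test, filterByExpr with a minimum count of 10 and a minimum total of 15, TMM scaling, Benjamini-Hochberg adjustment over all genes tested, called under 0.05). There was 1 fit of the 9 mRNA libraries (12664 genes), 1 of the 9 RNC libraries (11660) and 1 of all 18 (12872), each on group means, and 12 comparisons were made. Standard errors are the log2 change divided by the root of F. RPKM served to order genes within a group and, for some members, to show where overlap between diets depends on the scaling. It was not tested. Log2 ratios used a pseudocount of 0.5 CPM. The GC correction took a lowess curve (span 0.3) of log2 CPM (prior count 2) on transcript GC out of each library, as an offset, for the 98.0% to 98.2% of genes with a GC value. DESeq2 1.42.0, limma-voom (limma 3.58.1), other scalings, no filter, blocks, and leaving out each library were alternatives. The scripts were tested on simulated data.

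The mRNA and RNC libraries of a diet and replicate number carry the same animal code, so they pair by liver. The correlation of their deviations from the group means was -0.079 to 0.75, and over 0.1 in 5 of 9 livers.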

Additional observations from a re-analysis of the deposited data

Results flagged for a closer look

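The change of Hsp90aa1 in HFD+LYC differed between ribosome-bound RNA and mRNA, by the test of the interaction of diet and kind of library. The log2 change in RNC minus that in mRNA was -1.66 against HFD (adjusted p = 0.0408) and -1.64 against control (adjusted p = 0.0471), and all 3 HFD+LYC livers lay below the other 6. Neither remained called with the GC correction (-0.44 and -0.47).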

How the results depend on the processing

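Among the 120 values, 12 comparisons of 10 members, 11 were called, and 1 of these changed sign under some alternative: Dnaja1 in RNC of HFD+LYC against HFD, 0.025 with the GC correction. Of the 109 not called, 55 changed sign under some alternative. For HFD+LYC against HFD in mRNA (0 called), DESeq2 and the replicate block called 1 each. Against control in mRNA (0), DESeq2 called 3, no filter 1, the replicate block 4 and the GC correction 1, and leaving out 1 library 0 to 3. In RNC, HFD+LYC against HFD (3) gave 2 to 4 with 1 library left out. Against control (4) it gave 2 to 4 so, and 2 with library size alone, with the GC correction and with the compared diets alone. RNC against mRNA gave 1 in control with the compared diets alone (0), and in HFD+LYC (2) it gave 7 with library size alone, 4 with the GC correction and 4 with the GC correction and the liver block. For the ratio, HFD+LYC against HFD (1) gave 0 with no filter, 2 with the liver as replicate block, 0 with the GC correction and 0 to 2 with 1 liver left out. Against control (1) it gave 0 with RLE size factors, 3 with library size alone, 2 with DESeq2, 0 with no filter, 3 with the liver as replicate block, 0 with the GC correction, 0 with the compared diets alone and 0 to 2 with 1 liver left out. For RNC against mRNA in HFD+LYC, signs turned for Hspa1b (-0.086) and Hsp90ab1 (-0.85) with library size alone. With the GC correction, and then with the liver block added, the values were 0.35 and 0.30 for Hsph1, 0.52 and 0.56 for Hsp90aa1, 0.50 and 0.50 for Dnaja1, 0.54 and 0.52 for Dnajb1, and 0.41 and 0.24 for Hspb1. The medians of all genes in these fits were 0.27 and -0.14. Dnajb1 also turned with limma-voom (0.016), no filter (0.013) and the compared diets alone (0.086), and ran from -0.31 to 0.15 with 1 liver left out, above 0 without control liver 1 (0.0061), HFD+LYC liver 1 (0.15) or HFD+LYC liver 2 (0.089). The causes were not tested.

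Diets hold different animals and share only replicate numbers, whose correlations were over 0.1 in 7 of 9 pairs in mRNA and 3 of 9 in RNC, so the replicate block between diets is not a pairing. The liver block changed no other call of a member than those given. Scaling by library size alone moved the median of all genes from -0.41 to -1.004 for the ratio against HFD and from -0.046 to 0.11 in mRNA against control. Hspa1a had only 0 to 17 reads in each RNC library, and was called lower in RNC than in mRNA of HFD+LYC with limma-voom, with library size alone and without HFD+LYC liver 1.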

Other observations

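Chaperones of the endoplasmic reticulum tended to be higher in ribosome-bound RNA than in mRNA on each diet. In control and HFD all 14 differences were above 0 (median log2 1.26 and 0.74, beside -0.067 and -0.054 over all genes), and edgeR called 0. In HFD+LYC, 11 of 14 were called higher in RNC and 0 lower, where 1649 of 12872 genes were higher and 3937 lower. The median was 2.06, beside -0.51 over all genes, led by Calr (3.72, adjusted p = 0.000103) and Pdia3 (2.37, adjusted p = 0.00140), lectin and disulfide chaperones of secreted proteins. With the GC correction 13 were higher, and with library size alone 4 were higher (median 0.42, beside -1.81 over all genes), each with 0 lower. In RNC against HFD, Calr (2.39, adjusted p = 0.00781) and Hyou1 (2.16, adjusted p = 0.0243) rose, also with the GC correction (2.99 and 2.29), and 0 of 14 were called in mRNA by edgeR, with 2 at an unadjusted p of 0.05 and 1 called lower by DESeq2. With library size alone the RNC counts against HFD were 1 higher and 2 lower (median -0.15, beside -0.87 over all genes), so that direction depends on the scaling. Whether these chaperones differed from the cytosolic ones was not tested.

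Of the 8 mitochondrial chaperones, 0 were called by edgeR in RNC or mRNA of HFD+LYC against HFD with TMM scaling or with the GC correction, and 4 and 1 were at an unadjusted p of 0.05. In RNC edgeR called 1 higher with RLE size factors and 2 lower with library size alone, and DESeq2 called 2 higher and 1 lower, while each of these called 0 in mRNA. Against control Grpel1 fell by 1.32 in RNC (adjusted p = 0.0391), and with the GC correction it was -0.42 (adjusted p = 0.566).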
